A study of Mus musculus with 4 samples.

Results

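The complement system is a cascade of blood and tissue proteins that tags cells, debris and microbes. Its 9 genes described here, C1qa, C1qb, C1qc, C3, C4b, C3ar1, C5ar1, Serping1 and Cd55, were chosen by name from the 31053 genes counted in each library. C1q, assembled from the products of C1qa, C1qb and C1qc, recognises targets and starts the classical pathway. C4 and C3 are then cleaved and deposited on the target. The small fragments C3a and C5a are sensed by the receptors encoded by C3ar1 and C5ar1, while C1 inhibitor, encoded by Serping1, blocks the first proteases and Cd55 (decay-accelerating factor) dissolves the convertases that cleave C3. In brain, microglia are known as the main source of C1q, and complement is known for its part in the removal of synapses and in vascular inflammation.

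Brain vascular-associated cells (BVACs) were enriched with CD31 beads, which bind endothelial cells (EC), from dissociated brains of male C57BL/6 mice aged 12 to 14 weeks. Mice of the chronic social defeat (CSD) group had spent 14 days housed beside an aggressive CD-1 male with daily defeat, and mice of the home cage (HC) group 14 days across a permanent partition from a CD-1 mouse. There were 2 libraries per group, CSD 1, CSD 2, HC 1 and HC 2, each a pool of cells from 4 mice, so that n was 2 libraries per group and mice within a pool cannot be told apart.

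The libraries held 27297599 to 30361474 unique molecular identifiers (UMIs, each standing for 1 captured mRNA molecule). Between 2553 and 4934 barcodes per library passed as cells (at least 500 UMIs and 250 genes, at most 25% mitochondrial UMIs), 14415 in all, and any pair of libraries shared between 0 and 9 cell barcodes. Cells were placed in classes by marker genes, none of them a member of this list, and 15.5% of the cells met no class. All 8 markers of the list were found in EC (4920 cells), microglia (4260), choroid plexus epithelium (1091), pericytes (446), astrocytes (417), arterial smooth muscle cells (SMC, 402), ependymal cells (124), T cells (112), border-associated macrophages (BAM, 110) and fibroblasts (79). Class sizes were uneven. CSD 2 held 5 BAM, 13 fibroblasts and 12 ependymal cells, and its microglia carried a median of 5013 UMIs against 1854 to 2716 in the other libraries. Levels are UMIs scaled to the UMI total of a class (CPM), with mean ± SD over 4 libraries. RNA floating free of cells was measured in barcodes with at most 100 UMIs, and a level at or below that is read as background. Low expression by the cells would also fall there, so this rule does not exclude it.

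C1qa, C1qb and C1qc are neighbours on chromosome 4 of the mouse build GRCm38. C1qb lies at chr4:136880129-136886187, C1qc at chr4:136889804-136893065 and C1qa at chr4:136895917-136898803, all on the minus strand, with 3616 and 2851 bases between them and no other protein-coding gene inside the span of 18675 bases. C3 (chr17:57203970-57228136) and C4b (chr17:34728380-34743882) are on chromosome 17, C3ar1 is at chr6:122847138-122856161 and C5ar1 at chr7:16246743-16259540. Serping1 is at chr2:84765387-84775444. Cd55 is at chr1:130439027-130462744, where its start overlaps the antisense gene Gm16083, which was also counted.

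The sequence upstream of 3 members is shown, chosen because a motif that was searched for was found there. Each is taken from RefSeq (GRCm38.p6, minus strand, 5′ to 3′), ends at the annotated start of the gene or, for C1qc and C3ar1, at the edge of the gene in GENCODE, and has the motif that was found in capitals. They cover chr4:136886201-136886450 for C1qb, chr4:136893066-136893164 for C1qc and chr6:122856162-122856407 for C3ar1.
C1qb: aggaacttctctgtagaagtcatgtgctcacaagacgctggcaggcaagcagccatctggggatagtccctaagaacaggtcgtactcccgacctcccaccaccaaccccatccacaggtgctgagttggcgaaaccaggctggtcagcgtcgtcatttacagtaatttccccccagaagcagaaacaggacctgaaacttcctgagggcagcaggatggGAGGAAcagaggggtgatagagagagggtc
C1qc: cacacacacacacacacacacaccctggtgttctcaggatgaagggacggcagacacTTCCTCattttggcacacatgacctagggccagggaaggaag
C3ar1: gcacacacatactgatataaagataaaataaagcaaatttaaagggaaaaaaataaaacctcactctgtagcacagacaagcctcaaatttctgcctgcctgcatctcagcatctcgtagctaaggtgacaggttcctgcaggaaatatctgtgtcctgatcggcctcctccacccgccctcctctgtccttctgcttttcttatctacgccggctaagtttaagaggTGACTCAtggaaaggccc
The capitals mark GAGGAA or its reverse complement TTCCTC, the core letters bound by PU.1, a factor of the myeloid lineage, in C1qb (beginning 30 bases before the RefSeq start) and C1qc (193 bases before), and TGACTCA, a match to the AP-1 letters TGANTCA, in C3ar1 (22 bases before). Both strands of 250 bases were searched, and the motifs do not overlap one another. GAGGAA was present in 23.3% of all 32851 upstream windows and TGANTCA in 6.75%. RefSeq gave windows for 6 members (C1qb, C1qc, C3, C3ar1, C5ar1 and Cd55). The windows of C3, C5ar1 and Cd55 held neither motif. These are matches of letters, not measured binding.

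The 3 subunits of C1q were macrophage genes in these libraries. In microglia, C1qa stood at 6312 CPM in CSD 1, 8680 in CSD 2, 6068 in HC 1 and 7602 in HC 2. C1qb stood at 7354, 9539, 6732 and 8521 CPM, and C1qc at 4671, 5712, 4620 and 5154 CPM, in the same order. For all 3 subunits CSD 2 was highest and HC 1 lowest, and the values of the 2 groups overlapped. The 3 transcripts together made up 1.83%, 2.39%, 1.74% and 2.13% of all microglial UMIs in CSD 1, CSD 2, HC 1 and HC 2.

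Nearly every microglial cell carried all 3 transcripts. The share was 99.1%, 98.5%, 98.0% and 99.5% in CSD 1, CSD 2, HC 1 and HC 2, and after each cell was thinned to 500 UMIs it was 81.1%, 87.5%, 78.5% and 87.4%. C1q transcripts were thus spread over the whole class. Within a library, the share of a cell's UMIs that came from C1q ran from 1.15% at the 10th percentile to 2.57% at the 90th in CSD 1, from 1.66% to 3.25% in CSD 2, from 1.07% to 2.56% in HC 1 and from 1.41% to 2.85% in HC 2.

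BAM, the macrophages of the perivascular space and meninges, carried the same 3 transcripts. C1qa stood at 5364, 6698, 5510 and 5712 CPM in CSD 1, CSD 2, HC 1 and HC 2, C1qb at 5202 to 7027 CPM and C1qc at 4177 to 5251 CPM. Of the C1q UMIs, C1qa made up 34.4% to 36.3% in microglia and 34.0% to 36.0% in BAM, C1qb 38.6% to 40.1% and 34.0% to 39.1%, and C1qc 23.9% to 26.5% and 26.5% to 31.3%. Compared within libraries, C1qb was 0.60-fold of microglia in BAM (95% CI 0.36 to 0.99, edgeR quasi-likelihood test, adjusted p = 0.205), C1qa 0.65-fold (0.39 to 1.07) and C1qc 0.75-fold (0.46 to 1.22). None of the 3 passed the threshold of 0.05, but the C1qb difference did with DESeq2 (adjusted p = 0.0326) and without the filter on low counts (adjusted p = 0.0390). The median log2 difference over all genes of the main fit was also below 0, at -0.29. Mean CPM lay closer together than these folds, as for C1qb with 6043 in BAM and 8037 in microglia.

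**Figure D1:**
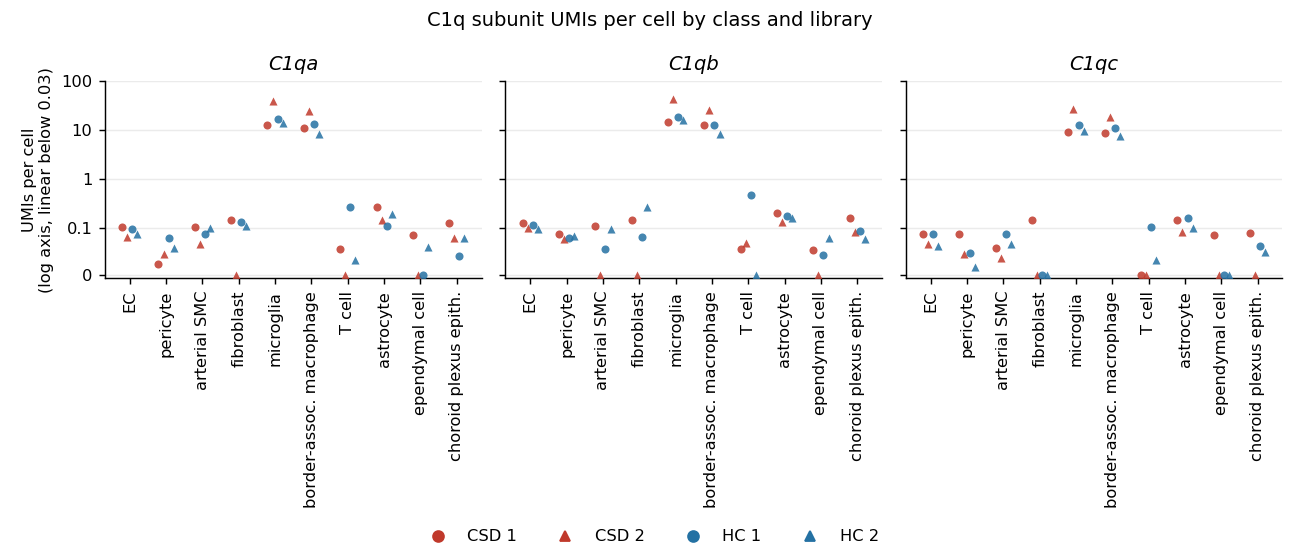
UMIs of C1qa, C1qb and C1qc per cell (log axis, linear below 0.03) in 10 classes, 1 point per library, red for CSD and blue for HC. Microglia and BAM lie above 7 UMIs per cell in every library, while every other class lies below 0.5.

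Outside these 2 macrophage classes, C1q lay below the level of free RNA, which was 468 ± 74.6 CPM for C1qa, 599 ± 128 for C1qb and 271 ± 34.5 for C1qc. EC, the most numerous class, held 53.3 ± 15.4, 68.5 ± 15.8 and 36.9 ± 8.53 CPM, and choroid plexus epithelium 5.42 ± 2.76, 7.30 ± 2.22 and 2.89 ± 2.19 CPM. A cell of these classes held 0.0653 to 0.104 C1qa UMIs in EC and 0.0266 to 0.124 in choroid plexus epithelium, and 3.88% to 5.27% of EC had a C1qa UMI, against 99.2% to 100% of microglia. C1qb made up 40.8% to 47.1% of the C1q UMIs of EC, which overlapped the 42.7% to 47.2% of free RNA. In choroid plexus epithelium it was 43.7% in CSD 1 and 38.3% in HC 2. In astrocytes it was lower than in free RNA, at 32.7% in CSD 1, 36.8% in CSD 2 and 36.0% in HC 2, from 50 to 57 C1q UMIs. As they lay below free RNA, the C1q levels of these classes are read as background, but low expression is not excluded by this rule. The levels differed between classes, with C1qa at 117 ± 57.3 CPM in astrocytes. Monocytes held C1qa at 292 ± 218 CPM in 32 cells, a mean of 1.49 UMIs per cell, also below free RNA. Whether these classes express C1q was not tested.

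**Figure D2:**
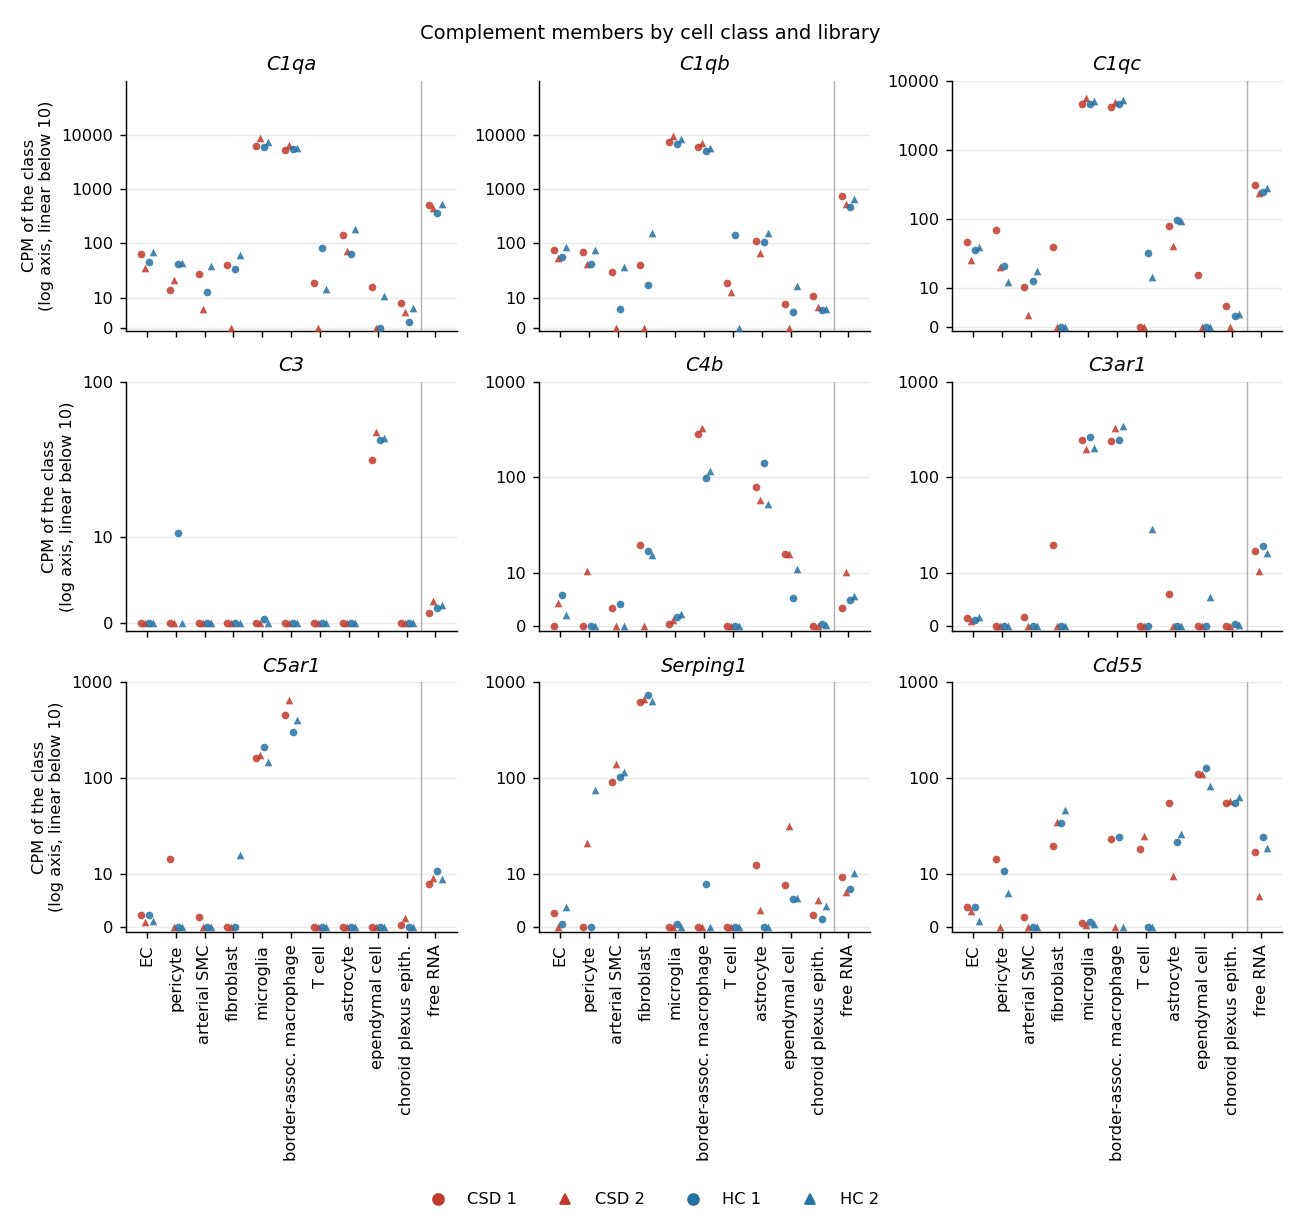
CPM of each member (log axis, linear below 10) in 10 classes and in free RNA, 1 point per library. The C1q genes and C3ar1 and C5ar1 rise above free RNA in microglia and BAM, C4b in BAM and astrocytes, Serping1 in fibroblasts and arterial SMC, Cd55 in ependymal cells and choroid plexus epithelium, and C3 in ependymal cells. Lower means above free RNA, from few UMIs, also occur, as for C4b in fibroblasts and ependymal cells and Cd55 in fibroblasts and astrocytes.

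C3, the central component of all 3 complement pathways, was scarce. Only 91 C3 UMIs lay in cells of the 4 libraries together. Ependymal cells, the ciliated lining of the ventricles, held 23 of them in 17 cells, at 31.4 CPM in CSD 1, 47.2 in CSD 2, 41.9 in HC 1 and 43.4 in HC 2 (41.0 ± 6.77), against 1.85 ± 0.632 CPM in free RNA. The 4 libraries stood close together although each value rests on 3 to 8 UMIs. The share of ependymal cells with a C3 UMI was 10.7%, 8.33%, 14.3% and 16.3%, and no EC had one.

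A further 57 C3 UMIs, 62.6% of those in cells, lay in 29 cells that met no class. Of these 29 cells, 27 carried at least 2 astrocyte markers, 24 at least 2 ependymal markers and 19 at least 2 choroid plexus markers. At least 2 markers were also carried by 11 cells for arterial SMC, 11 for neurons and 5 for oligodendrocytes. The lists of EC, pericytes, fibroblasts, oligodendrocyte precursors, neutrophils and monocytes reached at most 3 cells each, and none carried 2 microglial, BAM, T or B cell markers. The shares among the other cells without a class were not compared. Monocytes held 6 C3 UMIs in 4 of 32 cells, and neutrophils, present in the CSD libraries only (14 cells), held 2 UMIs in 2 cells. Scaled to the class totals this was 65.1 ± 88.6 CPM in monocytes and 146 ± 75.5 CPM in neutrophils. Both means lay above that of ependymal cells, but rest on few cells and UMIs. Microglia, with 10492265 UMIs, held 1 C3 UMI. No C3 UMI was found in EC, BAM, arterial SMC, fibroblasts, astrocytes, choroid plexus epithelium, T cells or B cells, which allows at most 0.389 CPM in EC, 0.234 CPM in choroid plexus epithelium and 4.38 CPM in astrocytes (3 counts over the 4 libraries). No C3 test between CSD and HC was made in the main fits, since C3 passed the filter on low counts in no class. Without that filter C3 was among 8 members tested in ependymal cells, of which 0 were called.

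C4b encodes mouse complement C4, which carries the classical pathway on to C3. It stood apart from C1q by its place. BAM held 285 CPM in CSD 1, 329 in CSD 2, 97.2 in HC 1 and 115 in HC 2. These values rest on 25, 6, 12 and 2 UMIs, and the 6 UMIs of CSD 2 came from 1 of its 5 BAM. A C4b UMI was found in 33.3% of BAM in CSD 1, in 1 of 5 BAM in CSD 2, in 19.6% in HC 1 and in 16.7% in HC 2, against 0.0634% to 0.419% of microglia and 0% to 1.08% of EC. Microglia, which share C1q with BAM, held C4b at only 1.33 ± 0.820 CPM, below free RNA (6.08 ± 2.94 CPM).

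C4b was 133-fold higher in BAM than in microglia of the same libraries (95% CI 67.7 to 260, SE of the log2 fold change 0.50), which passed the threshold in every alternative. This was 1 of 2 members called of 6 tested, where 11.5% of all 7829 genes tested were called. The median log2 difference over all genes was -0.29. C4b was also found in astrocytes, at 79.1 CPM in CSD 1, 57.5 in CSD 2, 140 in HC 1 and 52.3 in HC 2, with 50 UMIs in 31 cells. The astrocyte values of the 2 groups overlapped, with HC 1 highest and HC 2 lowest. The other classes held few UMIs, namely 6 in ependymal cells, 3 in fibroblasts, 3 in oligodendrocytes and 24 in EC, where the 3.07 ± 2.54 CPM lay below free RNA. The near-identical gene C4a was not among the counted genes, so reads common to both copies may have been counted as C4b or dropped.

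The receptors for the anaphylatoxins C3a and C5a stood above free RNA in microglia and BAM, but not in all myeloid classes. Monocytes (32 cells) and neutrophils (14 cells) held no C3ar1 UMI. With so few cells, this allows at most 20.4 CPM in monocytes and 191 CPM in neutrophils (3 counts over their libraries). C5ar1 in monocytes was at 25.8 ± 29.8 CPM, from 6 UMIs. C3ar1 stood at 246 CPM in CSD 1, 196 in CSD 2, 263 in HC 1 and 201 in HC 2 in microglia, and at 240, 329, 243 and 346 CPM in BAM. Both classes overlapped, and C3ar1 was 1.005-fold in BAM against microglia (95% CI 0.61 to 1.65, edgeR adjusted p = 0.994). C5ar1 stood at 160, 173, 211 and 148 CPM in microglia and at 457, 659, 300 and 404 CPM in BAM. Every BAM value lay above every microglial value, and C5ar1 was 2.05-fold higher in BAM (95% CI 1.28 to 3.27, edgeR adjusted p = 0.0286). Without CSD 1 the adjusted p was 0.429, without HC 1 it was 0.173 and without the filter on low counts 0.109, at 1.76-fold, 2.24-fold and 1.84-fold.

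Receptor transcripts were thinly spread over microglia. A C3ar1 UMI was found in 34.3%, 50.3%, 43.5% and 30.8% of microglia in CSD 1, CSD 2, HC 1 and HC 2, and a C5ar1 UMI in 24.3%, 42.6%, 33.4% and 21.2%, with CSD 2, the library of the deepest microglia, highest for both. After thinning to 500 UMIs the shares were 11.1%, 8.01%, 12.2% and 10.1% for C3ar1 and 7.29%, 5.84%, 10.2% and 7.62% for C5ar1, and CSD 2 was lowest. At most 0.263% of EC had a C3ar1 UMI and 0.351% a C5ar1 UMI. Neutrophils, of which the HC libraries held none, had C5ar1 at 652 CPM in CSD 1 and 400 in CSD 2, from 9 UMIs.

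Among microglia, both receptors varied with chemokine level. Microglia of each library were split at their median share of Ccl3 and Ccl4 UMIs into chemokine-high and chemokine-low cells, a range cut from a per-cell value and not a cell type, with 4.17% to 5.45% of the cells within 10% of the cut. The cut lay at 0.275% of a cell's UMIs in CSD 1, 0.145% in CSD 2, 0.276% in HC 1 and 0.274% in HC 2. It was lowest in CSD 2, so high and low hold within a library only. C3ar1 stood at 271, 212, 309 and 222 CPM in chemokine-high microglia of CSD 1, CSD 2, HC 1 and HC 2, and at 219, 171, 206 and 179 CPM in chemokine-low microglia. C5ar1 stood at 198, 194, 261 and 173 CPM in chemokine-high and at 120, 141, 149 and 123 CPM in chemokine-low microglia. In each of the 4 libraries the chemokine-high cells were higher, by 1.30-fold for C3ar1 (95% CI 1.18 to 1.42) and 1.54-fold for C5ar1 (95% CI 1.39 to 1.71), and both passed the threshold in every alternative. They were the 2 members called of 5, where 2.87% of 8179 genes were called.

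The C1q genes did not go with the receptors. C1qa was 0.96-fold in chemokine-high microglia (95% CI 0.90 to 1.02, edgeR adjusted p = 0.585), C1qb 0.97-fold (0.92 to 1.03) and C1qc 0.95-fold (0.89 to 1.01). Median UMIs per cell were 1940, 5590, 2944 and 1875 in chemokine-high and 1849, 3396, 2377 and 1828 in chemokine-low cells, and the median mitochondrial share was lower in the chemokine-high cells of every library (3.13% to 4.64% against 3.74% to 5.83%). The part of depth and mitochondrial share in the receptor difference was not tested beyond the alternatives with at least 1000 UMIs and at most 10% mitochondrial UMIs, where both differences were called.

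**Figure D3:**
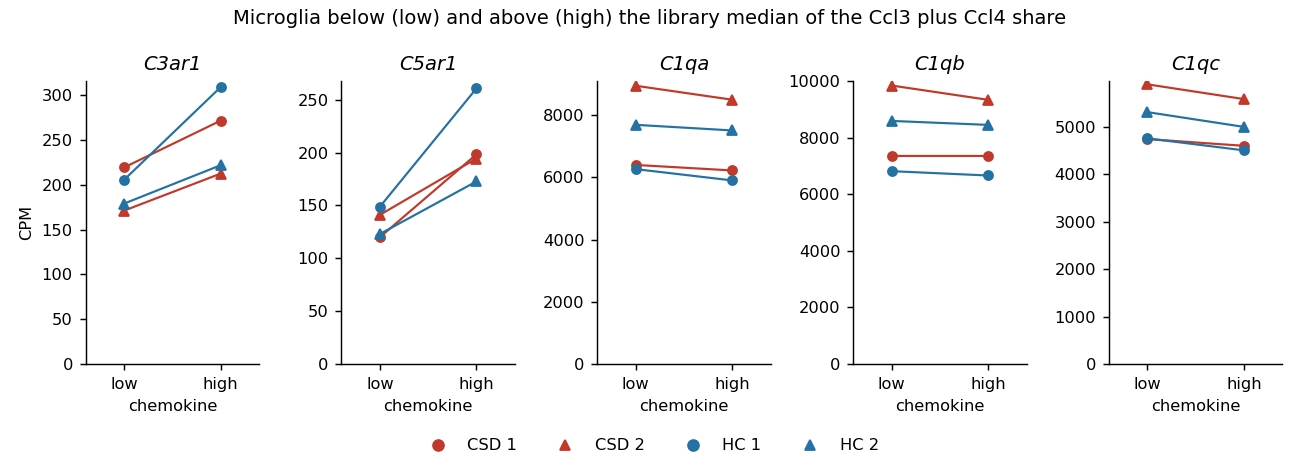
CPM of C3ar1, C5ar1, C1qa, C1qb and C1qc in chemokine-low and chemokine-high microglia, joined by library. C3ar1 and C5ar1 are higher in chemokine-high cells of each of the 4 libraries, and the 3 C1q genes are level or lower there.

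Serping1, the gene of C1 inhibitor, stood highest in fibroblasts, at 627 CPM in CSD 1, 675 in CSD 2, 739 in HC 1 and 638 in HC 2 (670 ± 50.6), against 8.27 ± 1.72 CPM in free RNA. Arterial SMC came next, at 90.3, 139, 103 and 114 CPM (112 ± 20.7). A Serping1 UMI was found in 46.2% to 80.0% of fibroblasts and 23.7% to 54.8% of arterial SMC. Pericytes, the other mural cells, held 0 CPM in CSD 1, 20.7 in CSD 2, 0 in HC 1 and 75.1 in HC 2, so that every arterial SMC value lay above every pericyte value. Serping1 was 4.31-fold higher in arterial SMC than in pericytes (95% CI 2.51 to 7.40, edgeR adjusted p = 1.76e-05), and the call was kept in every alternative. It was called beside C1qb, of 2 members tested, where 49.4% of 3940 genes were called. C1qb was 0.35-fold, but lay in both classes below free RNA and is read as background. EC, at 1.74 ± 1.78 CPM, and microglia, with 1 Serping1 UMI, lay below free RNA.

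Cd55 stood above free RNA in the cells that line the ventricles. Ependymal cells held 110 CPM in CSD 1, 110 in CSD 2, 126 in HC 1 and 81.5 in HC 2, and choroid plexus epithelium, which secretes cerebrospinal fluid, 55.1, 57.3, 54.2 and 62.6 CPM, against 16.3 ± 7.70 CPM in free RNA. The choroid plexus values had an SD of 3.76 CPM, and every ependymal value lay above them. Fibroblasts held 33.6 ± 11.1 CPM and astrocytes 28.0 ± 19.2 CPM, from 8 and 17 UMIs. Cells that met no class held 48.8 ± 9.78 CPM. They had 1053 Cd55 UMIs, against 750 in choroid plexus epithelium and 60 in ependymal cells. B cells, of which the CSD libraries held 6, had 182 CPM in HC 1 and 204 in HC 2, from 14 UMIs. EC, which are exposed to complement of the blood, held only 2.85 ± 1.24 CPM and microglia 0.572 ± 0.210 CPM, both below free RNA. Cd55 counts may hold reads of its near-identical copy, and those of the antisense gene at its start cannot be told apart unless strand was used in counting.

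No member was called between CSD and HC after correction for all genes tested. Over 12 classes, of which BAM was added after seeing the data because CSD 2 held too few for the limit of 10 cells, members passed the filter on low counts in 9 classes and gave 31 tests. Some of these were tests of C1q genes in classes where C1q lay below free RNA. These classes were EC, capillary EC (a part of EC), arterial SMC, astrocytes and choroid plexus epithelium. None of the 31 tests was called by edgeR or by DESeq2. The smallest adjusted p was 0.858 with edgeR, for C1qa in capillary EC, where it is read as background. At an unadjusted p below 0.05 there was 1 test, of C4b in BAM, with edgeR, and 0 with DESeq2. Few genes of any kind were called. The percentages of all genes tested were 0.0% in microglia, 0.0603% in EC, 0.467% in capillary EC, 0.0607% in choroid plexus epithelium, 0.0897% in astrocytes, and 0.0% in arterial SMC, fibroblasts, ependymal cells and BAM, and 0.0417% in pericytes, 0.0582% in arterial EC and 0.0% in T cells, where no member passed the filter. In microglia, 0 of 9801 genes were called and 128 had an unadjusted p below 0.05. With 2 libraries a group, the test was tried on simulated counts with changes put in. It found 63.2% of 2-fold and 99.0% of 4-fold changes in microglial counts of 9562 genes, and 52.0% and 93.8% in choroid plexus epithelium. False calls numbered 5 and 6. These counts were drawn at a fixed dispersion (spread between libraries) of 0.02, which was not estimated from the data. Recovery in the real counts may therefore be lower and was not measured.

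In microglia, where all 5 tested members stood far above free RNA, C1qa was 1.13-fold in CSD against HC (95% CI 0.62 to 2.09), C1qb 1.14-fold (0.63 to 2.08) and C1qc 1.10-fold (0.63 to 1.90). C3ar1 was 0.98-fold (0.64 to 1.49) and C5ar1 0.96-fold (0.62 to 1.50). The intervals reached at most 2.09-fold. Without CSD 2, the library with the highest C1q levels, the log2 fold changes of C1qa, C1qb and C1qc were -0.16, -0.10 and -0.11. Serping1 was 1.01-fold in arterial SMC (0.67 to 1.52) and 0.99-fold in fibroblasts (0.54 to 1.82). Cd55 was 0.93-fold in choroid plexus epithelium (0.70 to 1.23), the narrowest of these intervals, and 1.04-fold in ependymal cells (0.56 to 1.93). C4b was 0.69-fold in astrocytes (0.31 to 1.54).

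In BAM, C4b was 2.89-fold in CSD against HC (95% CI 1.16 to 7.17, unadjusted p = 0.0263, edgeR adjusted p = 0.999). It was higher in both CSD libraries than in both HC libraries but rests on 45 UMIs and failed the correction. C5ar1 in BAM was 1.57-fold (0.77 to 3.21), from 96 UMIs, with only 5 BAM in CSD 2. Its CSD libraries also lay above both HC libraries. How many of all genes lay apart in this way was not counted, so the separation of C4b and C5ar1 is not read as a result. C1qa, C1qb and C1qc in BAM were 1.05-fold, 1.18-fold and 0.91-fold, and C3ar1 0.98-fold, each with an interval that included 1. The difference of the CSD effect between BAM and microglia was tested by an interaction term and was not called for any of 6 members (0.0% of 7829 genes). For C4b that difference was 2.76 on the log2 scale (SE 1.24, unadjusted p = 0.0260), and the edgeR adjusted p was 1. Its microglial side rests on 13 UMIs at 1.33 CPM, below free RNA (6.08 CPM), and is read as background. The value is therefore not read as a CSD effect particular to BAM.

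**Figure D4:**
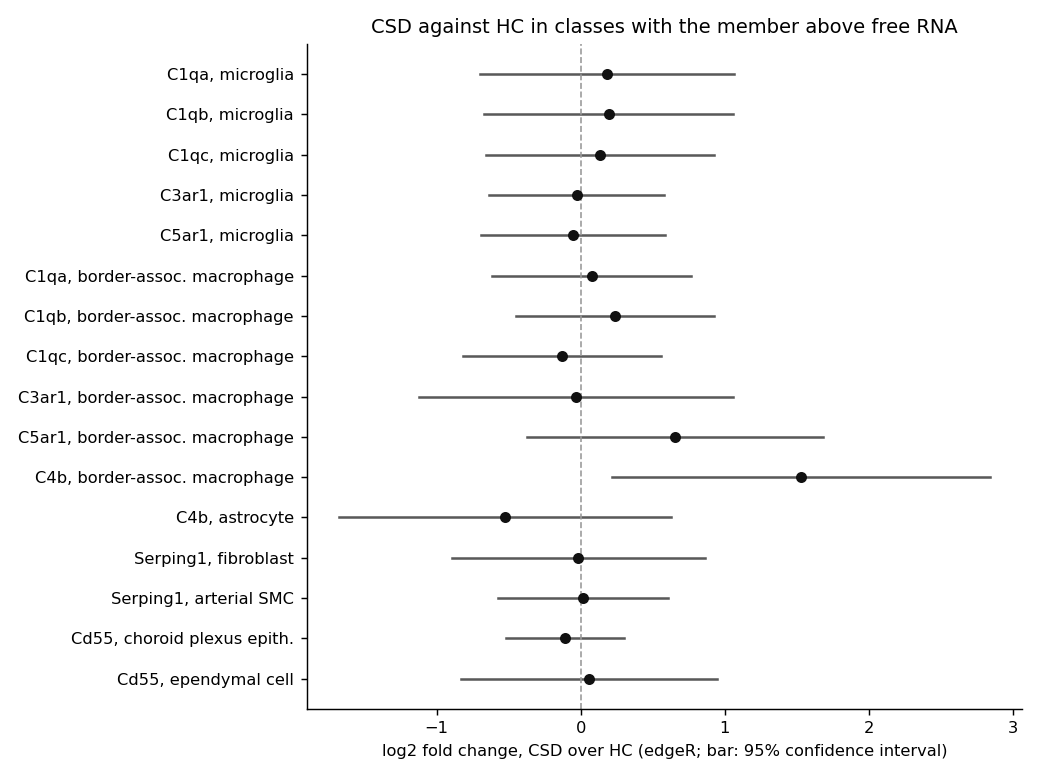
Log2 fold change of CSD over HC with its 95% confidence interval (edgeR) for members in the classes where they stood above free RNA. The interval of C4b in BAM lies above 0 before correction, and the other 15 cross 0.

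Within EC, no member was called between zones. C1qa, C1qb and C1qc were the only members tested between arterial EC (161 cells) and capillary EC (3615 cells), where 8.88% of 7049 genes were called, and between venous EC (37 cells) and capillary EC, where 2.72% of 6278 genes were called. In both the C1q levels lay below free RNA. With a looser gate, which took the class with the most markers, Serping1 (10.4-fold, edgeR adjusted p = 4.62e-08) and C1qc (1.45-fold, edgeR adjusted p = 0.0297) were called higher in arterial than in capillary EC, of 4 members tested. In that fit 1759 of all 8532 genes tested were called. With the main gate, the difference of the CSD effect between arterial and capillary EC was not called for C1qa, C1qb or C1qc (0.0284% of 7049 genes called). Serping1 was not tested in that fit.

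The genes whose levels followed those of the members most closely over 9 classes are given as a description (Pearson's r of log2(CPM + 20), classes sharing the same 4 libraries). For the mean of C1q they included Csf1r, Trem2, Cd14 and Fcrls, with r of 0.989 to 0.991. For C3ar1 they were Clec5a, Ptafr, Havcr2, Mpeg1 and Ncf1 (0.992 to 0.996), and for C5ar1 they included Ncf1, Spi1, Gpr84 and Cd33 (0.996 to 0.998). Spi1 encodes PU.1. C3 went with Krt15, Dnah5, Dmkn, Calb1 and Tmem212 (0.995 to 0.998), C4b with Fam228b, Cdh10, Slc4a4, Gpld1 and Cxcl14 (0.982 to 0.988), Serping1 with Col3a1, Nov, Col1a2, Emilin1 and Col6a1 (0.953 to 0.984) and Cd55 with Jtb, Paxx, Rsph9, Gm1673 and Ezr (0.947 to 0.965). Tmem212, Slc4a4, Col3a1 and Col1a2 are markers that set the classes, and BAM were not among the 9 classes.

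A further 51 complement genes were looked at beside the members. None was called between CSD and HC in any of 12 classes, in 75 tests with edgeR (1 with an unadjusted p below 0.05, Cd59a in EC, smallest adjusted p = 0.600) and 75 with DESeq2 (0 below 0.05). What differed was their place. Clu, the terminal pathway inhibitor clusterin, stood at 2885 ± 451 CPM in ependymal cells, 1629 ± 680 in astrocytes and 1589 ± 76.7 in choroid plexus epithelium. Cd59a, a blocker of the membrane attack complex, stood at 301 ± 47.9 CPM in EC and 340 ± 11.4 in choroid plexus epithelium, both classes in which Serping1 was at background.

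Receptor genes of the pathway had their own places. Cd93, once held to be a C1q receptor, stood at 210 ± 17.8 CPM in EC, and Itgam, a chain of complement receptor 3, at 412 ± 10.5 CPM in microglia. Lrp1 and Calr, a receptor pair linked to the uptake of C1q-coated cells, stood at 459 ± 55.8 CPM in fibroblasts (Lrp1) and 577 ± 92.1 in microglia (Calr). Colec12, a scavenger receptor of the collectin family, stood at 410 ± 36.9 CPM in pericytes and 428 ± 131 in fibroblasts. Cpn1, carboxypeptidase N, which inactivates C3a and C5a, stood at 138 ± 17.5 CPM in ependymal cells, where C3 was also found. Hc, the gene of C5, chosen after its values were seen, stood at 56.1 ± 23.6 CPM in the same class, from 28 UMIs, against 1.44 ± 0.787 CPM in free RNA.

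**Figure D5:**
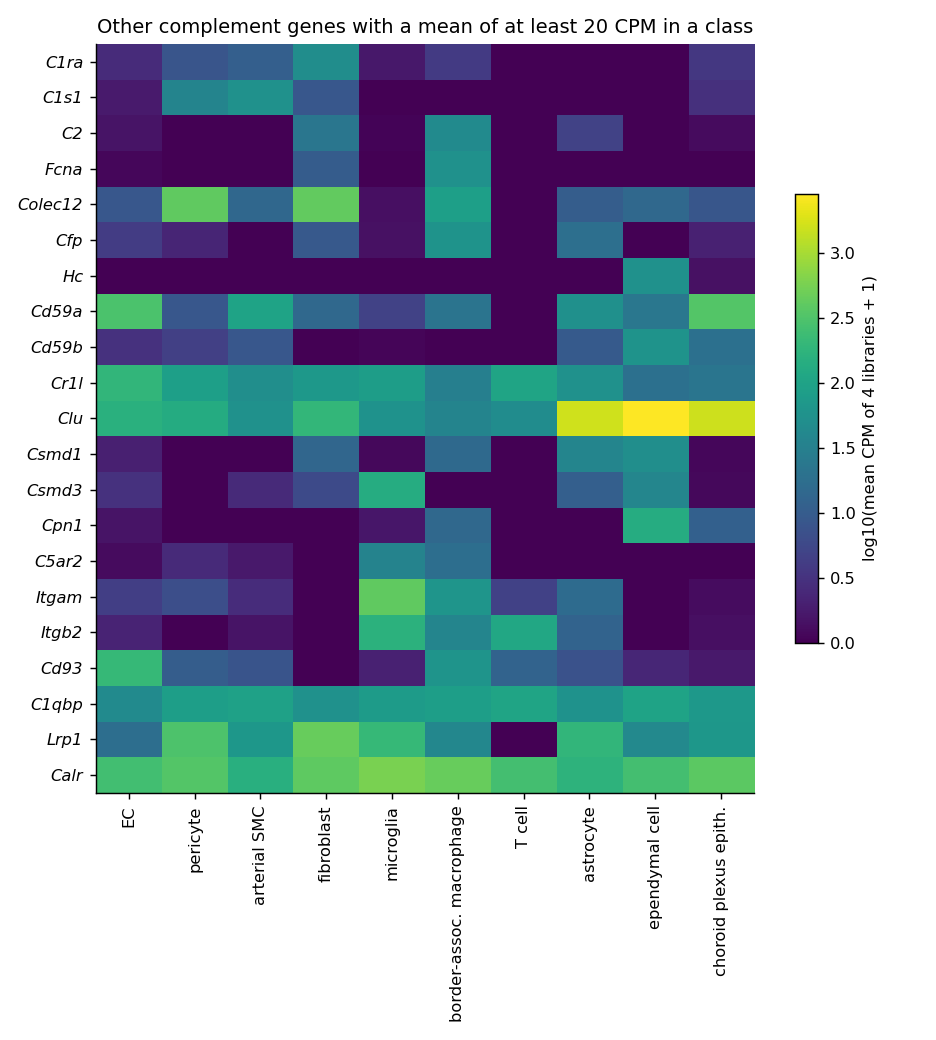
Mean CPM of 4 libraries, as log10(CPM + 1), of 21 other complement genes with at least 20 CPM in one of 10 classes. Clu is brightest in ependymal cells (2885 CPM).

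Between classes of the same libraries, 5 of 11 other complement genes were called between BAM and microglia, 1 higher and 4 lower, where 11.5% of all 7829 genes were called. Cd93 was 52.6-fold higher in BAM (95% CI 21.9 to 126), Itgam 0.19-fold, Itgb2, its partner chain, 0.24-fold and Lrp1 0.21-fold, and Csmd3, at 138 ± 32.8 CPM in microglia, had no UMI in BAM. Itgb2 lost its call without CSD 1 (edgeR adjusted p = 0.0715). Between arterial SMC and pericytes 7 of 9 were called, where 49.4% of all 3940 genes were called. Cd59a was 11.3-fold higher in arterial SMC, and 6 were lower, among them Colec12 (0.039-fold) and Lrp1 (0.24-fold), while Cr1l (0.61-fold) and Clu (0.46-fold) lost the call in some alternatives. Clu was 3.59-fold higher in arterial than in capillary EC (95% CI 2.83 to 4.57), where 8.88% of all 7049 genes were called. Between chemokine-high and chemokine-low microglia, Itgam (0.87-fold) and Clu (0.70-fold) were lower in the former, of 10 tested, where 2.87% of all 8179 genes were called. Both calls were lost in some alternatives.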

How the data were processed

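Single-cell 3′ RNA sequencing (10x Genomics) was analysed from 4 libraries, 2 of CSD and 2 of HC, each a pool of 4 mice. The authors deposited, per library, whole-number UMI counts per gene for all 6794880 barcodes, neither filtered for cells nor normalized. The submitters' processing notes name Cell Ranger 4.0 with GRCm38 and mm10, the matrix headers version 3.1.0 and the study's methods version 6.0.

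Cells were gated by 8 markers per class (6 per EC zone). A cell needed at least 2 detected markers and no other class with over 50% as many. No doublet caller was run, and how many doublets remained was not measured. UMIs were summed per library and class. CSD and HC were compared in classes with at least 10 cells in every library, and classes within libraries with library as a term, by edgeR 4.0.16 (filterByExpr, TMM, quasi-likelihood test, two-sided, R 4.3.3) with Benjamini-Hochberg adjustment over the genes of each fit and a threshold of 0.05. DESeq2 1.42.0 and the settings named in the closing section were alternatives. Scripts were tested on simulated counts. Replicate numbers did not pair libraries by any label, and the correlation of same-numbered deviations was 0.45 in microglia and -0.04 to 0.26 in the other classes that met the cell limit. Positions are from GENCODE M21 and upstream sequences from RefSeq, which held 6 of the 9 members. Shares carry exact (Clopper-Pearson) 95% limits in the tables behind the text. These, and the floor of 3 counts at 0, cover counting error only. Pools are the replicates, so p-values measure the spread between pools.

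All 9 members are named, with other complement genes that were called between CSD and HC or that were among the 3 highest of a class with at least 100 CPM, and up to 5 genes most like each member. Some genes that met these rules are not reported here. The members, gene lists, tests and alternatives were chosen with earlier results of these data known. BAM were added to the comparison of CSD with HC after seeing the data.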

Additional observations from a re-analysis of the deposited data

Results flagged for a closer look

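In 3 of the 26 levels tested of members above free RNA, 1 library stood far from the other 3. Its gap to the nearest, over the whole range, was above Dixon's 95% critical value for 4 samples. A level with UMIs in only 1 library always has the highest ratio, 1.0. Both flagged C3 levels were of this kind and lay above free RNA only through that library. The usual rate of 1 in 20 by chance therefore does not apply to them. C3 in pericytes was at 10.6 CPM in HC 1 and at 0 in the other 3 libraries, from 1 UMI. C3 in oligodendrocyte precursors was at 67.1 CPM in HC 2 and at 0 in the others, again from 1 UMI. Serping1 in ependymal cells was at 31.4 CPM in CSD 2, from 2 UMIs, and at 5.23 to 7.84 CPM in the other 3 libraries.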

How the results depend on the processing

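No member passed the threshold between CSD and HC in any class under any alternative run. The 28 tests in which a member lay above free RNA in a class compared gave 344 values under the alternatives. Of these, 309 kept their direction and side of the threshold, 3 became weaker, 2 stronger and 30, in 13 tests, changed sign, of which 0 were past the threshold. Of 70 mean levels, 3 moved by more than 1 SD, all with at most 10% mitochondrial UMIs (C3 in ependymal cells to 49.1 CPM, Serping1 in fibroblasts to 887 and Cd55 in choroid plexus epithelium to 47.8). The counts of all genes called moved more, and the cause was not tested.

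Between CSD and HC with 1 library left out, the log2 fold change in microglia ran from -0.16 to 0.46 for C1qa, -0.10 to 0.45 for C1qb, -0.11 to 0.34 for C1qc, -0.15 to 0.14 for C3ar1 and -0.23 to 0.18 for C5ar1. It ran from -0.031 to 0.11 for C1qa and -0.13 to 0.016 for C3ar1 in BAM, from -0.27 to 0.31 for Serping1 in arterial SMC and -0.21 to 0.088 in fibroblasts, from -1.02 to 0.31 for C4b in astrocytes, and from -0.20 to 0.032 for Cd55 in choroid plexus epithelium and -0.26 to 0.36 in ependymal cells. C3ar1 in BAM against microglia ran from -0.022 to 0.0053. With at least 3 markers, Serping1 in fibroblasts was at 0.012 and C3ar1 in BAM at 0.035. With the loose gate, Serping1 in fibroblasts was at 0.078, Cd55 in ependymal cells at -0.050 and C1qa in BAM at -0.030. Without the filter on low counts, Cd55 in ependymal cells was at -0.050, C1qa in BAM at -0.0048 and C3ar1 in BAM against microglia at -0.15. With RLE normalization the last was at -0.011, and with at most 10% mitochondrial UMIs Cd55 in ependymal cells was at -0.050.

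Between CSD and HC, the number of genes called was 6 in EC, 1 in pericytes, 2 in astrocytes, 6 in choroid plexus epithelium, 1 in arterial EC, 42 in capillary EC and 0 in microglia, arterial SMC, fibroblasts, ependymal cells, T cells and BAM. With DESeq2 it was 66 in EC, 1 in microglia, 5 in fibroblasts and 0 in pericytes, astrocytes and choroid plexus epithelium. Without the filter on low counts it was 2 in EC, 23 in microglia, 3 in pericytes, 6 in arterial SMC, 50 in fibroblasts, 11 in astrocytes, 19 in choroid plexus epithelium, 12 in ependymal cells, 3 in T cells, 0 in arterial EC, 203 in capillary EC and 1 in BAM. With at least 1000 UMIs per cell it was 1 in astrocytes and 6 in capillary EC. With at most 10% mitochondrial UMIs it was 2 in pericytes, 1 in astrocytes, 2 in choroid plexus epithelium and 12 in capillary EC. With a complexity of at least 0.8 it was 1 in astrocytes, with RLE normalization 0 in arterial EC, with at least 3 markers 26 in capillary EC, and with the loose gate 0 in pericytes and 17 in capillary EC. Fibroblasts could not be fitted with at least 1000 UMIs or at most 10% mitochondrial UMIs.

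The replicate numbers are only shared numbers. With the replicate block, 14 genes were called in EC, 36 in microglia, 2 in arterial SMC, 40 in fibroblasts, 12 in choroid plexus epithelium, 4 in ependymal cells, 2 in T cells and 242 in capillary EC.

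Leaving out 1 library, where a lone library is assumed to vary like the others, gave 0 to 7 genes in EC, 2 to 27 in pericytes, 0 to 24 in arterial SMC, 2 to 13 in astrocytes, 7 to 20 in choroid plexus epithelium, 1 to 33 in ependymal cells, 0 to 8 in T cells, 1 to 23 in arterial EC, 37 to 243 in capillary EC and 0 to 6 in BAM. EC had 0 without CSD 1 or CSD 2, and capillary EC 243 without CSD 1.

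Between classes, 901 genes were called between BAM and microglia (428 to 1013 with 1 library left out, and 1 to 2 members, 1 of them without CSD 1 or HC 1). Between arterial and capillary EC it was 626, with 375 in DESeq2 and 1759 of 8532 with the loose gate. With that gate Serping1 and C1qc, 2 members, were called higher in arterial EC. Between venous and capillary EC it was 171, with 28 in DESeq2, 34 with RLE normalization, 95 with at least 1000 UMIs, 27 with at least 3 markers and 16 to 132 with 1 library left out. Between arterial SMC and pericytes it was 1948, with 1275 at most 10% mitochondrial UMIs, and 1 member there and with at least 1000 UMIs. Between chemokine-high and chemokine-low microglia it was 235, with 88 in DESeq2 and 141 to 211 with 1 library left out. The CSD effect differed between arterial and capillary EC for 2 genes, with 0 in DESeq2, at most 10% mitochondrial UMIs and at least 3 markers, 1 with at least 1000 UMIs, 4 with the loose gate and 0 to 1 with 1 library left out. C4b in BAM rests on 45 UMIs and C3 in ependymal cells on 23, in classes with few cells, so both are limited by few counts.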
